A study of Nematostella vectensis with 6 samples.

Results

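Among the transcripts of the sea anemone Nematostella vectensis, 114 gene models were at least 4-fold lower in polyps that were pinching off their physa than in polyps at steady state. They were selected on their expression in the same 6 libraries, so their difference between the groups is a description and carries no test. Expression was scaled as CPM, the count of a gene model per 1000000 counts of its library. A member had a mean of at least 1 CPM over the 6 libraries, a highest pinching value below its lowest steady-state value, and a steady-state mean at least 4 times its pinching mean. The rule also left out the 200 most abundant gene models, which removed no candidate. Of 24525 gene models counted, 15658 had a mean of at least 1 CPM, and 1371 of these (8.76%) had all their pinching values below all their steady-state values. The 114 members were the part of those 1371 with the largest fold differences, the others being 495 gene models lower by 2-fold to under 4-fold and 762 lower by less than 2-fold.

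The study compared 3 RNA-seq libraries of pinching animals with 3 of steady-state animals, all kept in gravel. The sample labels give the tissue as the physa, while the extraction protocol in them speaks of lysed whole animals, and the methods describe pooled individuals. The labels give no strain, sex or age for these animals and no transgene or drug. The genotype entry names only a published genome. The stage of pinching at collection was not known to the authors. On the tissue, their discussion speaks of measuring expression where the body constricts and detaches. It counts having taken that tissue alone among the limits of the work.

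Nematostella is a burrowing cnidarian whose tube-shaped body ends in a bulb, the physa, with which the polyp anchors itself. In transverse fission a ring of the body column constricts, the physa comes away and it regrows a mouth and tentacles as a clone of its parent. The body wall that constricts holds epithelial, muscle, nerve, gland and stinging cells. Because RNA was measured in bulk, less of a transcript per cell cannot be told apart from fewer of the cells that make it. The reference table used here matched 0 of the 24525 identifiers to a name, so the members are described by their levels and not by their roles, and no marker of a cell type could be looked up to check the labelled tissue.

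The libraries held between 22423447 and 27343077 counts on gene models, and every pinching library was larger than every steady-state library. A member was covered by 2 to 15786 counts in a steady-state library and by 0 to 3897 in a pinching library. The 22 members with a mean steady-state level under 5 CPM were covered by 2 to 198 counts in a steady-state library and by 0 to 52 in a pinching library. Whether libraries of a group came from separate cultures is not stated, so the spread between them may be partly technical.

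Together the members took 0.544% to 0.601% of the counts of a steady-state library and 0.0885% to 0.147% of a pinching library. Their summed level was 5443, 5985 and 6014 CPM in steady-state replicates 1, 2 and 3, and 1474, 1065 and 885 CPM in pinching replicates 1, 2 and 3. The steady-state sums lay close together at 5814 ± 322 CPM (SD, n = 3), whereas the pinching sums were spread more widely relative to their mean of 1141 ± 302 CPM (SD, n = 3). Single members did not differ in this way. Their SD over the 3 libraries of a group was a median of 48.6% of their mean at steady state. In pinching it was 49.1%, over the 113 members with a pinching count. The median member ranked between 5970 and 7110 among the 24525 gene models of a steady-state library and between 11420 and 14395 in a pinching library. On that scale the members thus typically stood in the upper part of the steady-state libraries and near the middle of the pinching libraries. Their ranks do not depend on how the libraries were scaled.

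**Figure D1:**
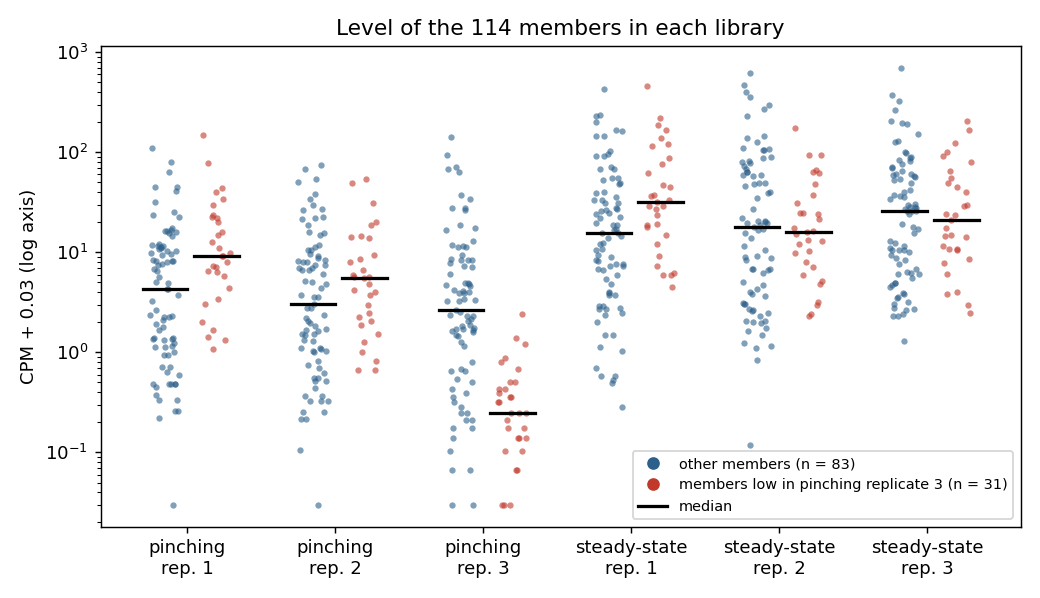
CPM plus 0.03 on a log axis for each member in each of the 6 libraries, with black bars at the medians of both sets; 31 members that were low in pinching replicate 3 are drawn in red and the other 83 in blue. The red median drops towards the bottom of the plot in pinching replicate 3, at 0.219 CPM before the 0.03 is added, while the blue median is 2.60 CPM there.

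Most members passed the fold limit narrowly. The ratio of the steady-state mean to the pinching mean was 4 to under 5 in 62 members, 5 to under 8 in 38, 8 to under 16 in 10 and 16 or more in 3. The median ratio was 4.88, and the remaining member was without counts throughout the pinching group. The gap between the groups was smaller than the ratio of means implied. The lowest steady-state value was less than 1.5 times the highest pinching value in 45 members, 1.5 to under 2 times in 34, 2 to under 4 times in 31 and at least 4 times in 3, while the member without pinching counts has no such ratio. At the fold limit, the 3 members just inside had ratios of 4.02, 4.02 and 4.04, and the 3 gene models just outside had ratios of 3.97, 3.96 and 3.95. The members with the smallest gaps had a lowest steady-state value of only 1.06, 1.06 and 1.10 times their highest pinching value. A further 39 gene models of sufficient abundance met the ratio of 4 but overlapped between the groups, and 227 met both conditions with a mean below 1 CPM.

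Members were found over a wide range of abundance. The mean steady-state level was under 5 CPM in 22 members, 5 to under 20 CPM in 32, 20 to under 100 CPM in 46 and 100 CPM or more in 14. The most abundant was NV2g023310000.1, with 427, 613 and 699 CPM in steady-state replicates 1 to 3 and 109.5, 74.7 and 142.5 CPM in pinching replicates 1 to 3. Its groups were well apart, since the lowest steady-state library held 2.99 times the level of the highest pinching library. Its ratio of means was 5.32, from 579.5 ± 139.0 CPM (SD, n = 3) to 108.9 ± 33.9 CPM (SD, n = 3). Here pinching replicate 3 was the highest of its group.

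**Figure D2:**
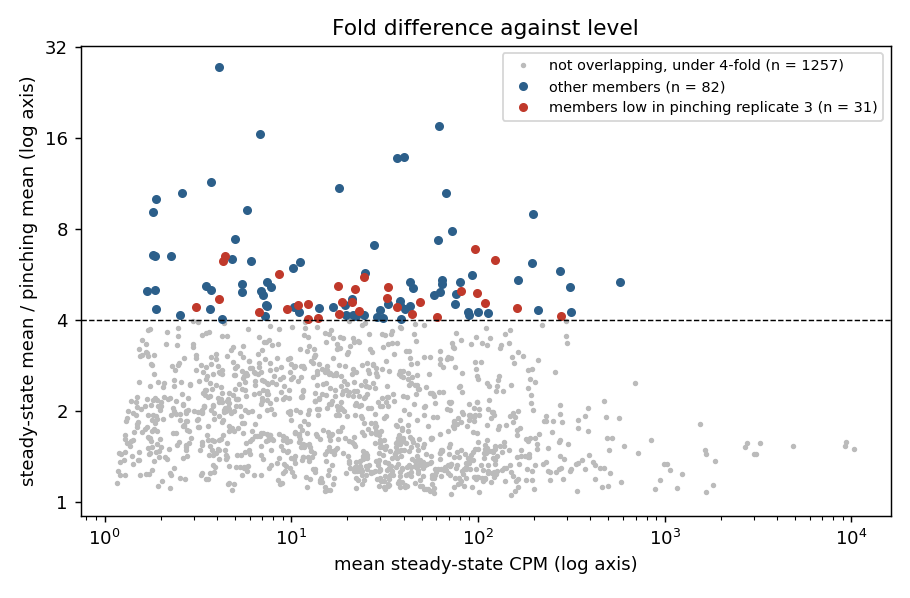
Ratio of the steady-state mean to the pinching mean against the mean steady-state CPM, both on log axes, for gene models lower in every pinching library; members lie above the dashed line at 4, and gene models that did not reach it are grey. Members are spread over levels from 1.69 to 580 CPM and crowd just above the line, and the red members low in pinching replicate 3 reach a ratio of at most 6.87. The member with no pinching count has no ratio and is not drawn.

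The member without pinching counts was NV2g009433000.1, which had 0 counts in each of the 3 pinching libraries, so that no ratio to its pinching level can be formed. It had 93, 2 and 87 counts in steady-state replicates 1, 2 and 3, or 3.90, 0.0892 and 3.85 CPM. Steady-state replicate 2 was therefore nearly as empty as the pinching libraries, and the groups were kept apart by 2 counts. As an approximate upper limit for a count of 0, 3 counts over the whole pinching group were taken, which is 0.0373 CPM. On that limit the steady-state mean was at least 70.1 times the pinching level. This bound covers counting error only and rests on the steady-state mean of 2.61 ± 2.19 CPM (SD, n = 3). It does not hold for steady-state replicate 2 alone, at 0.0892 CPM.

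The largest ratio of means that could be formed, 27.4, belonged to a member with 6, 6 and 0 counts in pinching replicates 1, 2 and 3 against 89, 140 and 54 in steady-state replicates 1, 2 and 3. Its groups were also the farthest apart of those with any pinching count, at a 10.5-fold gap. The gene model with the next higher identifier number was a member too, with a ratio of 16.4 and 18, 8 and 7 pinching counts against 174, 234 and 59 steady-state counts. In both, steady-state replicate 2 was highest and replicate 3 lowest.

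The members did not behave alike within the pinching group. In 31 of them, pinching replicate 3 was at least 8-fold below both other pinching libraries, each of which held at least 0.5 CPM. No member was that low in pinching replicate 1 or in pinching replicate 2 alone, and 2, 1 and 0 members were in steady-state replicates 1, 2 and 3. Over all 15658 gene models the same criterion held for 165 in pinching replicate 3 (1.05%), 0 in each of the other pinching libraries, and 16, 3 and 1 in the steady-state libraries. Thus 27.2% of the members showed the drop. The share is a description, because a near-zero library lowers the pinching mean on which members were chosen.

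In those 31 members, pinching replicate 3 was nearly empty. They summed to 604, 305 and 12.3 CPM in pinching replicates 1, 2 and 3, and to 2099, 930 and 1292 CPM in steady-state replicates 1, 2 and 3. In counts, pinching replicate 3 had 335 over all 31, where pinching replicate 1 had 15941, and 3 of the 31 had none. The most abundant of them stood at 147.6, 54.6 and 1.17 CPM in pinching replicates 1, 2 and 3, against 457, 174 and 206 CPM in steady-state replicates 1, 2 and 3. Its pinching replicate 1 came within 1.18 times of its lowest steady-state library.

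**Figure D3:**
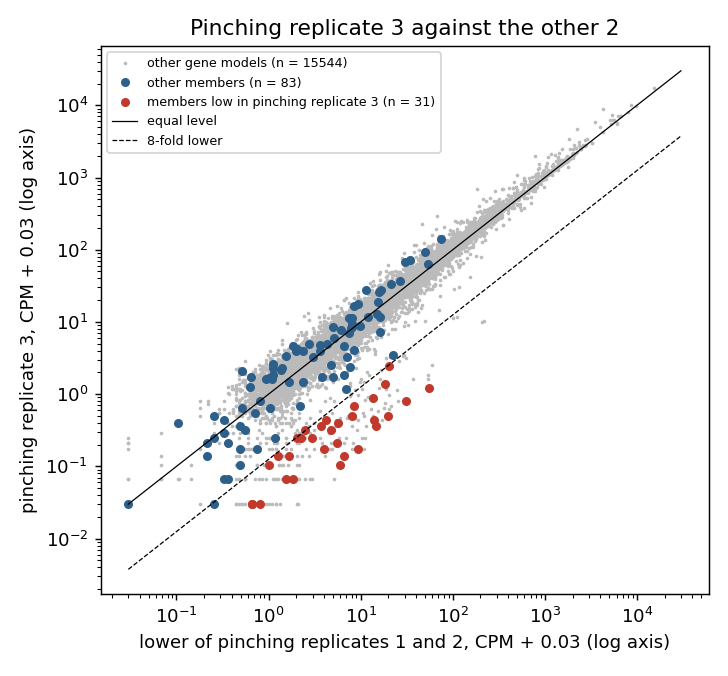
CPM plus 0.03 in pinching replicate 3 against the lower of pinching replicates 1 and 2, on log axes, for all gene models with a mean of at least 1 CPM. Most gene models and most of the 83 blue members follow the solid line of equal level. The 31 red members lie below or close to the dashed line of 8-fold lower, together with 134 grey gene models that are not members. The added 0.03 can lift a point that is just past 8-fold above that line.

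Most of the 31 also shared an order among the other 5 libraries, which the criterion for pinching replicate 3 left free. Pinching replicate 1 was above replicate 2 in 29 of the 31, in 62 of the other 83 members and in 6780 of all 15658 gene models (43.3%). Steady-state replicate 1 was highest, replicate 3 next and replicate 2 lowest in 26 of the 31 (83.9%), in 16 of the 83 and in 2516 of all gene models (16.1%). Both held together in 26 of the 31, in 9 of the 83 and in 1473 of all gene models (9.41%). Relative to its own steady-state mean, the median of the 31 stood at 144%, 64.8% and 90.4% in steady-state replicates 1, 2 and 3, and at 43.3%, 19.3% and 1.01% in pinching replicates 1, 2 and 3. After the group means were removed from log2(CPM + 1) values, the median correlation between 2 of these members over the 6 libraries was 0.95, and 76.3% of their 465 pairs were above 0.9. Without pinching replicate 3, whose low level chose these members, the median was 0.92 and 53.8% of the pairs were above 0.9. The 5th percentile of the pairs was then -0.88, so some of the 31 departed from the profile of the rest. All pairs share the same libraries, so these correlations describe a profile that most of the 31 had in common and are not independent of each other.

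Measured against pinching replicate 1 alone, these 31 were much less reduced. Their steady-state mean was a median of 2.31 times the level in pinching replicate 1 and reached 4 times in only 3 of them. Against pinching replicate 2 the median was 5.18 times. Against the mean of both libraries it was 3.10 times, below the limit of 4. With the rule applied without pinching replicate 3, 117 gene models met it, of which 68 were members, and only 4 of the 31 remained. The 31 were chosen for a near-empty pinching replicate 3, so leaving it out must raise their pinching mean. Their lower ratio without that library, and their loss from the rule, therefore follow largely from the choice.

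**Figure D4:**
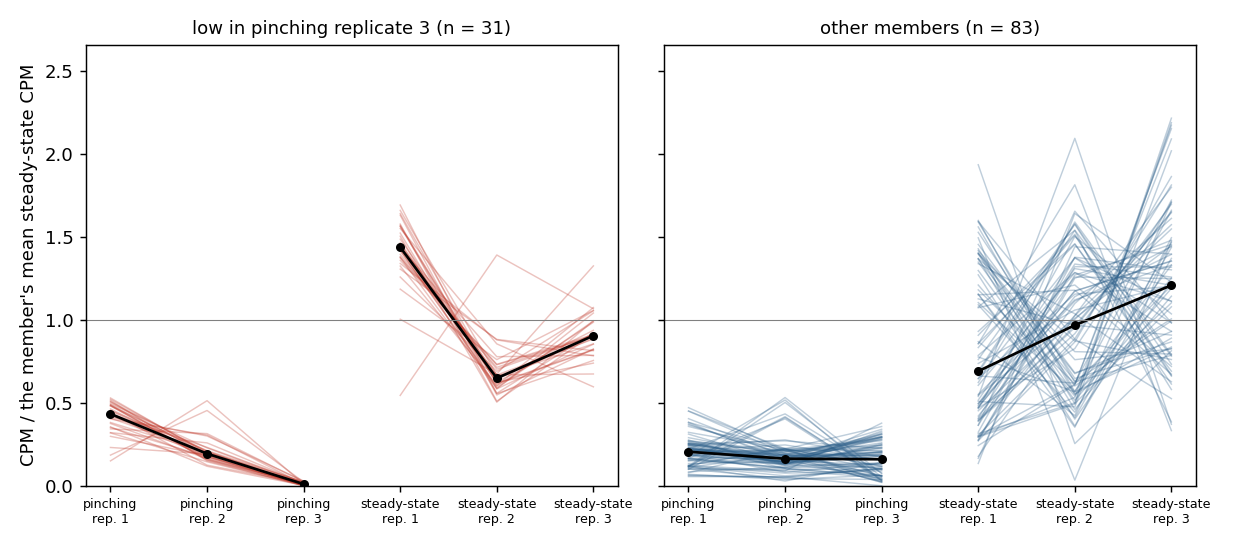
CPM of each member divided by its own mean steady-state CPM, in the 31 members low in pinching replicate 3 and in the other 83; a coloured line joins the values of a member within a group, the black line the medians, and the order of replicates has no meaning. Most of the 31 lines share an order of libraries and fall to a median of about 1% of the steady-state mean in pinching replicate 3. In steady-state replicate 1 they still range from 54.4% to 169%. The lines of the other members cross one another at steady state.

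Among gene models outside the rule, 134 had the same drop in pinching replicate 3. The steady-state mean was the higher in 106 of them and the pinching mean in 28, with a median ratio of means of 2.01. They were lower in every pinching library in 21 cases. The fold in this criterion moves the number of members, which was 35 at 4-fold and 18 at 16-fold. Both values were chosen after the data were seen, as was the criterion itself. Whether the animals, the stage of pinching or the handling of that library set the drop was not tested.

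The other 83 members lacked the drop in pinching replicate 3 by the way they were separated, so a smaller spread in the pinching group is no finding about them. They summed to 869, 760 and 873 CPM in pinching replicates 1, 2 and 3, a mean of 834 ± 63.9 CPM (SD, n = 3). At steady state they summed to 3344, 5055 and 4722 CPM, a mean of 4374 ± 907 CPM (SD, n = 3), where the 31 had a mean of 1440 ± 598 CPM (SD, n = 3). Replicate 1 was the lowest steady-state library in 41 of the 83 (49.4%), beside 27.3% of all gene models with a mean of at least 1 CPM. Replicate 3 was the highest in 36 (43.4%), beside 43.5% of all those gene models. The median coefficient of variation over the 3 libraries was 51.6% at steady state and 36.5% in pinching, against 41.5% and 102% in the 31. Over all gene models with a mean of at least 1 CPM, it was 18.6% and 12.3%. The biological coefficient of variation that edgeR estimated had a median of 0.52 in the members and 0.25 in all 21345 gene models tested. A single extreme library moves the means on which members were chosen, so their wider spread than that of all gene models is a description.

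Unlike the 31, the 83 had no order of the steady-state libraries that most of them shared. The steady-state library with the highest level was replicate 1 in 21, replicate 2 in 26 and replicate 3 in 36 of them. Over all gene models with a mean of at least 1 CPM, these shares were 29.4%, 27.1% and 43.5%, beside 25.3%, 31.3% and 43.4% of the 83. The median correlation between 2 of the 83 was 0.04, computed in the same way over 6 libraries, and 0.01 without pinching replicate 3. The 5th to 95th percentile over 6 libraries was -0.73 to 0.95, so some pairs were highly correlated. Pairs above 0.9 made up 9.29%, or 14.0% without pinching replicate 3. With so few libraries high values can arise between unrelated gene models. The share over all gene models was not computed, so whether some of the 83 varied together is not known. The steady-state mean was at least 4 times pinching replicate 1 in 61 of the 83, pinching replicate 2 in 74 and pinching replicate 3 in 63. Some rested on 1 steady-state library, as in a member with 27.3, 45.7 and 206 CPM in steady-state replicates 1, 2 and 3 and 15.5, 15.5 and 18.8 CPM in pinching replicates 1, 2 and 3. Its ratio of 5.61 came from steady-state replicate 3, and its lowest steady-state library was 1.45 times its highest pinching library.

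Membership moved with most single libraries. With the rule applied to 5 libraries, 107 of the 114 members were kept without pinching replicate 1, 92 without pinching replicate 2 and 68 without pinching replicate 3. Leaving out a steady-state library instead kept 74 members (replicate 1), 94 (replicate 2) or 82 (replicate 3). Of the 31, 30 were kept without pinching replicate 1, 25 without pinching replicate 2, 10 without steady-state replicate 1 and 30 without either of the other steady-state libraries. The number of gene models that met the rule rose to 244 without pinching replicate 1. Where the ratio of group medians was used in place of means, 92 of the 114 still reached 4. With the means replaced by the extreme libraries, so that the lowest steady-state value had to be at least 4 times the highest pinching value, 4 members were left, 1 of them the member without pinching counts.

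**Figure D5:**
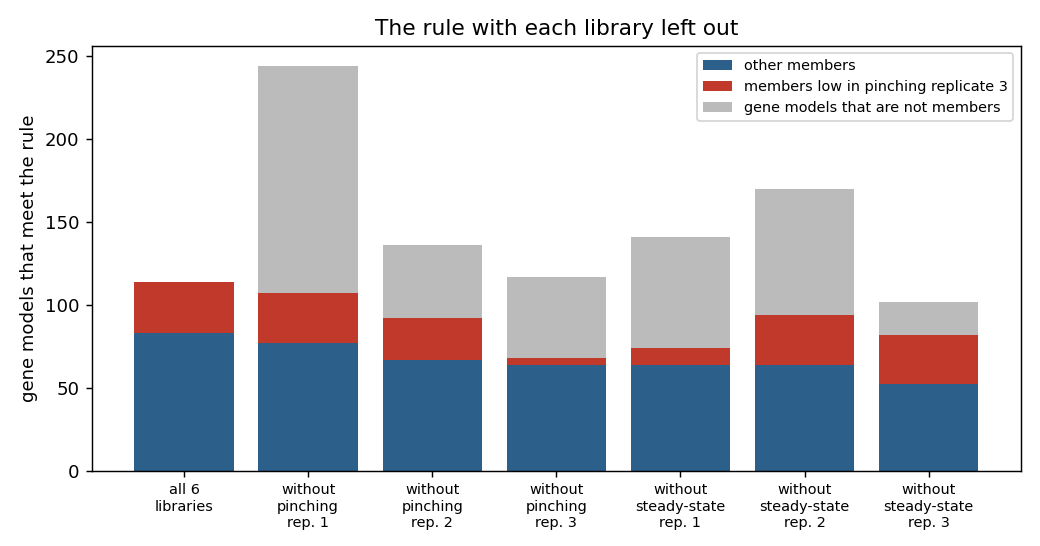
Number of gene models that met the rule with all 6 libraries and with each library left out, divided into members low in pinching replicate 3 (red), other members (blue) and gene models that are not members (grey). The red part shrinks from 31 to 4 without pinching replicate 3 and to 10 without steady-state replicate 1, and the bar is highest, at 244, without pinching replicate 1. The red members were chosen for a low pinching replicate 3, so their loss without it follows largely from that choice.

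The scaling of the libraries mattered less. With TMM-normalized CPM the rule gave 121 gene models, 113 of them members, and with DESeq2's size factors it gave 132, which included all 114. The same rule with the groups exchanged found 10 gene models at least 4-fold higher in pinching, or 7 with TMM and 6 with DESeq2's size factors. Without pinching replicate 3 this number was 30, and it lay between 11 and 22 without any other single library, against 102 to 244 on the lower side.

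In the fit over all genes, using the quasi-likelihood test of edgeR and a threshold of 0.1 on the Benjamini-Hochberg adjusted p, 32 of 21345 gene models were called lower in pinching (0.15%), and 14 of these were members. The rule used the same contrast, so nothing is read from this overlap. All 114 members were tested, and their median log2 fold change, pinching over steady-state, was -2.34, beside 0.01 over all gene models tested. The 14 had gaps between the groups of 2.38-fold to 5.26-fold, mean steady-state levels of 18.1 to 580 CPM and adjusted p-values of 0.0794 to 0.0975 in edgeR's test. For NV2g023310000.1 the log2 fold change was -2.45 (standard error 0.30, edgeR adjusted p = 0.0934). For NV2g009433000.1 the edgeR adjusted p was 0.151, with 0.0806 to 0.483 over the edgeR and limma alternatives, and the gene was called with the replicate number as a block (0.0806), without steady-state replicate 2 (0.0972) and by DESeq2's Wald test (adjusted p = 0.00649). Its fitted fold change is not given because it depends on the prior count. None of the 31 members low in pinching replicate 3 was called by edgeR, with a median standard error of 0.90 on the log2 scale beside 0.51 in the other 83. The 31 were chosen for a wide spread within the pinching group, which raises the standard error. Their contrast with the 83 in these tests thus follows largely from the split. An unadjusted p under 0.05 in edgeR's test was reached by 23 of the 31 and by 106 of all 114, beside 1969 of all gene models tested in the lower direction (9.22%). Since the rule used the same contrast, nothing is read from these counts of members either.

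DESeq2's Wald test, which the study's methods name, called 1237 of the 16362 gene models given an adjusted p lower in pinching (7.56%). It called 83 members, 80 of the 83 without the drop in pinching replicate 3 and 3 of the 31, a contrast that also follows largely from the split. The edgeR calls, whose adjusted p-values among members were 0.0794 to 0.0975, lay close to the threshold. With a pinching library left out, whichever it was, 0 members and 0 of all gene models were called lower. Whether the library itself or the smaller number of libraries set this loss was not tested. Leaving out a steady-state library gave 49 called members without replicate 1, beside 1.39% of all gene models tested, 31 without replicate 2, beside 0.694%, and 3 without replicate 3, beside 0.0475%. With edgeR, an unadjusted p under 0.05 was reached by 111 members without pinching replicate 1, beside 8.58% of all gene models tested that were lower at that p. It was reached by 87 members without pinching replicate 2, beside 6.11%, and by 114 without pinching replicate 3, beside 7.77%. The members were chosen on this contrast in these libraries, so nothing is read from how their counts compare with the shares over all gene models.

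Some members carried neighbouring identifier numbers. In 9 runs of consecutive numbers, 1 of them 3 long and the others pairs, there were 19 of the 114 members. Of the 212 gene models whose number was next to that of a member, 19 were members themselves (8.96%), beside 0.465% of all gene models. Counting only neighbours with a mean of at least 1 CPM, it was 19 of 138 (13.8%), beside 0.728%. The correlation of group-centred log2(CPM + 1) values over the 6 libraries was above 0.9 in 8 of the 10 adjacent pairs and ran from 0.11 to 1.00. Of all 6441 pairs of members, 12.7% were above 0.9. The share among adjacent gene models that are not members was not computed. In the closest pair, both low in pinching replicate 3, the first had 22.6, 9.28 and 0.146 CPM in pinching replicates 1, 2 and 3 and the second had 12.6, 6.59 and 0.110 CPM. Whether numbers follow position in the genome is not stated in the files, and whether adjacent models share reads was not tested.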

How the data were processed

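The authors sequenced stranded mRNA libraries as single reads, aligned them with STAR 2.7.3a to the Nvec200 genome, discarded reads with identical start and sequence as duplicates, and deposited raw counts per gene model, unfiltered. The counting program is not given in the sources used here. Libraries were grouped by the deposited sample labels.

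CPM used all 24525 gene models of each library. In R 4.3.3, edgeR 4.0.16 (quasi-likelihood, TMM, group as the only term) was fitted to gene models with at least 3 counts summed over 6 libraries, with Benjamini-Hochberg adjustment; DESeq2 1.42.0 and limma 3.58.1 (voom) were alternatives. In fits without 1 library, the count filter was applied to the other 5. The scripts were tested on simulated data. The members and the rules for describing them were chosen with earlier results of these data known. Gene models named by identifier are the member with the highest mean steady-state CPM and, for the largest ratio of lowest steady-state to highest pinching CPM, the member whose pinching counts were all 0, which was ranked first although its ratio has no value. The lists of cell type markers and pathways could not be used, because 0 of the 24525 identifiers matched the reference table.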

Additional observations from a re-analysis of the deposited data

How the results depend on the processing

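The number of members called lower by edgeR, 14, moved with the test, the filter and the threshold. It was 83 with DESeq2's Wald test, 3 with limma-voom, 31 with no filter on low counts and 49 with a replicate block. It was 0 with filterByExpr or an edgeR adjusted p of at most 0.05. In edgeR's test, 100 of the 112 members kept by filterByExpr reached an unadjusted p under 0.05. Beside them, 1959 of the 17125 gene models tested there were lower at that p. In the main fit it was 106 of 114 members, beside 1969 of 21345 gene models. Such counts of members follow largely from the rule, which used the same contrast. Over all genes, the number called lower was 32 of 21345 in the main fit. In the same order it became 1237 of 16362, 7 of 21345, 87 of 22428, 314 of 21345, 0 of 17125 and 0 of 21345. Leaving out each library gave 0 to 49 members and 0 to 295 gene models called. The cause was not tested. The median log2 fold change of the members, -2.34, ranged from -2.75 to -2.30 with a library left out. It was -2.75 without pinching replicate 1, a move larger than the SD of 0.38 of the members' median between pinching libraries, and moved by less than that in the other 12 alternatives.

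Under the rule itself, the number of members was 4 with the extreme libraries in place of means and 102 to 244 with each library left out. The summed level at steady state was 6375 CPM with TMM and 6696 CPM with DESeq2's size factors, and 5821 to 11567 CPM with each library left out, where the pinching sum was 1006 to 1728 CPM; these sums follow from the changed lists.

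Whether same-numbered libraries were paired is not stated. Their deviations from the group means correlated across genes at 0.02, 0.21 and -0.07, not all above 0.1. With 3 libraries per group these values cannot decide whether there was a pairing, so the block was kept as an alternative. NV2g023310000.1 stayed called in 8 of 13 alternatives and lost its call with filterByExpr, without each pinching library and without steady-state replicate 3 (edgeR adjusted p of 0.103 to 0.307). NV2g009433000.1 gained a call in 3 of the 12 that could be fitted, since filterByExpr removed it. The direction of both was fixed by how they were chosen. Depth limits the members with few counts, since 0 to 52 counts lay behind a pinching value of those under 5 CPM at steady state.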
